A study of Homo sapiens with 6 samples.

Results

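The 30 genes described here carry out and regulate sterol production, uptake and storage. They were taken by their symbols from the 21857 genes of the deposited tables, and all 30 were present and passed the filter on low counts. They were read from bulk RNA of MV4;11, a cell line from a human acute myeloid leukemia with an internal tandem duplication of FLT3 (FLT3-ITD) and the MLL-AF4 fusion. 3 libraries came from cells given 10 µg/ml flavokawain A (FKA), a chalcone of the kava plant, for 48 h, and 3 from control cells; the labels name no vehicle. Both groups were grown in medium with fetal bovine serum, which contains lipoprotein cholesterol. 3 batches are labelled, with 1 FKA and 1 control library in each. The labels do not say whether batches were separate cultures, so the p-values below measure only the spread between these libraries, which may be technical. All libraries are from 1 cell line.

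Animal cells build cholesterol from acetyl-CoA. The mevalonate steps make isoprenoid units, which either enter prenyl products or are joined to squalene, and the late steps turn squalene into lanosterol and then cholesterol. When membranes hold little sterol, SCAP escorts the transcription factor SREBP2 from the endoplasmic reticulum to the Golgi, where proteases release its active part, which raises transcription of the synthesis enzymes. When sterol is plentiful, the INSIG proteins hold SCAP back, and oxidised sterols activate the LXR receptors, which favour export and limit uptake.

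Total counts lay between 29971171 and 33183376 in FKA libraries and between 33759185 and 36362421 in control libraries. Levels below are CPM, read counts relative to library size, scaled by the trimmed mean of M values (TMM). FKA was tested against control with edgeR's quasi-likelihood test over all 13531 genes that passed the filter, and p-values carry the Benjamini-Hochberg adjustment. A gene counts as changed when its adjusted p is below 0.05. The 6 blood and myeloid markers were all present, with a summed level of 1559 to 1589 CPM with FKA and 1209 to 1454 CPM in controls. The 9 fibroblast markers summed to 1.21, 52.8 and 48.9 CPM in FKA replicates 1 to 3, against 10.7, 8.97 and 0.803 CPM in control replicates 1 to 3, none of them at 0 in all libraries. Their part in the values below was not tested. Without FKA replicates 2 and 3 together all 16 changed members kept their direction, though with 1 FKA library left not all of them passed the test. That fit set FKA replicate 1, at 1.21 CPM of these markers, against the same 3 controls, so the marker sums were not made equal. RNA of bulk cultures cannot tell fewer cells of a type from less RNA per cell.

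With FKA, sterol genes rose more often than they fell. Of the 30 members, 14 rose, 2 fell and 14 did not pass the test. The share that rose was 46.7%, where 29.3% of all tested genes rose, and the share that fell was 6.67%, where 30.5% of all tested genes fell. The median log2 fold change of the members was 0.26, against 0.01 over all tested genes. 4 members rose at least 2-fold (TM7SF2, AACS, NR1H3 and SC5D) and none fell by as much, whereas 11.9% of all tested genes rose and 13.7% fell by that much. The FKA and control values did not overlap in 15 members that were higher and 3 that were lower, against 33.7% and 33.6% of all tested genes. Changes are relative to the scaling: with library totals alone the median of all genes moved up by 0.16, the share of higher calls among all calls was 60.3% in place of 48.9%, and 16 members rose and 1 fell, where 36.9% and 24.3% of all genes did. With the batch as a block 14 members rose and 4 fell, and the background was then 30% higher and 31.2% lower. With limma on log2(FPKM + 1) 15 members rose and 1 fell, against 22.5% and 14.1% of all 21857 genes. On log2(FPKM + 0.1) 15 rose and 1 fell, against 23.1% and 14.3%. These limma shares include genes that failed the filter on low counts, so they cannot be set beside the edgeR shares.

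**Figure D1:**
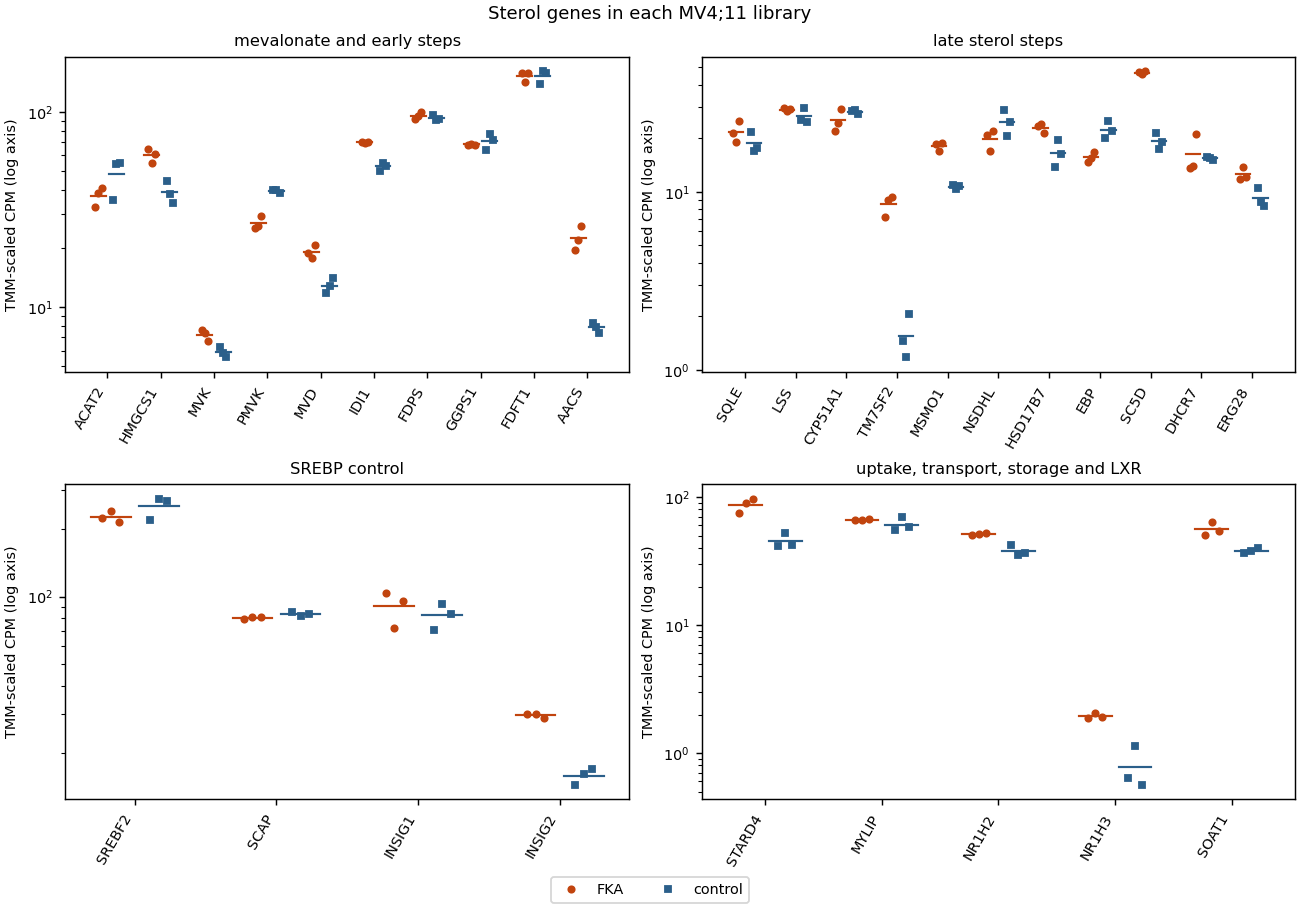
TMM-scaled CPM (log axis) of the 30 sterol genes in each library, FKA (circles) left of control (squares), with a line at each group mean of 3 libraries. SC5D, AACS, TM7SF2, INSIG2 and STARD4 show the FKA libraries well above the controls, while SREBF2, INSIG1, FDPS and FDFT1 overlap between the groups.

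Among the 10 genes of the mevalonate part and the early steps, 4 rose, 1 fell and 5 did not pass the test, with a median log2 fold change of 0.17. AACS, which activates acetoacetate to acetoacetyl-CoA in the cytosol and so feeds ketone bodies into lipid synthesis, had 19.6, 22.2 and 25.98 CPM with FKA, against 8.301, 7.94 and 7.41 CPM in controls. The lowest FKA library stood above 2 times the highest control library, and the rise was 2.87-fold, a log2 fold change of 1.52 (SE 0.146, adjusted p = 4.88e-05). HMGCS1, the cytosolic HMG-CoA synthase, measured 64.5, 54.5 and 61.2 CPM with FKA, against 44.5, 38.2 and 34.2 CPM in controls. Its groups were clear of each other, with control replicate 1 the highest control, and its log2 fold change was 0.62 (SE 0.119, adjusted p = 0.00186). MVD, the decarboxylase that makes isopentenyl diphosphate, showed 18.9, 17.9 and 20.7 CPM with FKA, against 11.8, 12.8 and 14.04 CPM in controls. All MVD values with FKA exceeded those of controls, with a log2 fold change of 0.57 (SE 0.129, adjusted p = 0.004502). IDI1, which interconverts the isoprenoid units, stood at 70.1, 68.98 and 70.4 CPM with FKA, against 50.1, 54.9 and 52.8 CPM in controls. The FKA libraries lay within 2 CPM of each other and above every control, and the log2 fold change was 0.41 (SE 0.08201, adjusted p = 0.00241).

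PMVK, the phosphomevalonate kinase that works between MVK and MVD, was the early gene that fell. It had 25.4, 26.04 and 29.5 CPM with FKA, against 39.9, 39.6 and 38.5 CPM in controls. Every FKA library was below every control, with a log2 fold change of -0.54 (SE 0.1002, adjusted p = 0.00151). The mevalonate kinase MVK was low in all libraries, with 7.24 ± 0.455 CPM with FKA and 5.88 ± 0.372 CPM in controls (SD, n = 3 each). Its groups did not overlap, but its log2 fold change of 0.30 did not pass the edgeR test (adjusted p = 0.127). MVK passed edgeR with library totals alone (log2 fold change 0.46, adjusted p = 0.0325, in a range of 0.0325 to 0.314) and limma on genes with a mean of at least 1 FPKM (adjusted p = 0.0346). ACAT2, the thiolase that joins acetyl-CoA units in the cytosol, had 32.6, 38.4 and 40.9 CPM with FKA, against 35.6, 54.2 and 54.9 CPM in controls. Control replicate 1 was the low control and fell inside the FKA range, and the log2 fold change was -0.37 (edgeR adjusted p = 0.0887). The fall of ACAT2 passed edgeR with the batch as a block (adjusted p = 0.0222, in a range of 0.00301 to 0.537 over the alternatives), with no filter (0.0376) and without control replicate 1 (log2 fold change -0.56, edgeR adjusted p = 0.00301).

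The 3 enzymes around the branch point gave the smallest fold changes of the early steps. FDPS, which makes farnesyl diphosphate, averaged 95.8 ± 4.08 CPM with FKA and 93.1 ± 2.73 CPM in controls (SD, n = 3 each). GGPS1, which lengthens that product for protein prenylation, averaged 68.2 ± 0.455 CPM with FKA and 70.996 ± 6.83 CPM in controls. FDFT1, the squalene synthase that commits farnesyl diphosphate to sterols, averaged 153.1 ± 9.68 CPM with FKA and 152.9 ± 12.3 CPM in controls. Their log2 fold changes were 0.041, -0.059 and 0.0018, with edgeR adjusted p of 0.672, 0.606 and 0.989, and the groups of all 3 overlapped. FDPS passed with limma on log2(FPKM + 1), where it was higher by 0.20 (adjusted p = 0.0209, in a range of 0.0209 to 0.9999 over the alternatives), and in both other limma settings. The sign of FDFT1 turned with DESeq2, and that of GGPS1 with library totals alone. In the GENCODE 29 annotation, which may not be the one behind the counts, 37.3% of the exon bases of GGPS1 are shared with TBCE on the same strand, up to 33.9% of those of ACAT2 with a single other gene on the opposite strand, 18.6% of those of FDPS with RUSC1-AS1 and 14.8% of those of IDI1 with IDI2-AS1, both on the opposite strand. FDPS also has 8 named pseudogenes and AACS 1. How reads of shared exons or of pseudogenes were counted, and whether strand was used, is not given, so the counts of these genes are uncertain.

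In the late part, which runs from squalene to cholesterol, 5 of 11 genes rose, 1 fell and 5 did not pass the test, with a median log2 fold change of 0.22. TM7SF2, a sterol reductase that acts after the lanosterol demethylase, changed most of all members. It had 7.18, 8.97 and 9.35 CPM with FKA, against 1.45, 1.17 and 2.05 CPM in controls. Every FKA library was over 3 times the highest control, from a low level, and the rise was 5.45-fold, a log2 fold change of 2.45 (SE 0.248, adjusted p = 6.22e-05). SC5D, the desaturase that puts a double bond into the sterol ring late in the pathway, had 46.9, 45.7 and 47.5 CPM with FKA, against 21.4, 17.4 and 19.01 CPM in controls. The FKA values lay close together and at more than 2 times the level of every control, with a log2 fold change of 1.28 (SE 0.108, adjusted p = 2.55e-05). MSMO1, the oxidase that starts removal of methyl groups from the ring, had 18.5, 16.9 and 18.8 CPM with FKA, against 10.9, 10.4 and 10.7 CPM in controls. Its control values were nearly equal, all FKA values were higher, and the log2 fold change was 0.76 (SE 0.122, adjusted p = 0.000674).

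HSD17B7, the reductase that completes the removal of a methyl group, rose less, with 23.3, 24.04 and 21.5 CPM with FKA, against 13.8, 19.6 and 16.3 CPM in controls. Its log2 fold change was 0.47 (SE 0.147, adjusted p = 0.0209), and control replicate 2 came close to the FKA values. ERG28, known from yeast as a scaffold that holds the demethylating enzymes together, had 11.9, 13.8 and 12.1 CPM with FKA, against 10.5, 8.801 and 8.36 CPM in controls. The gap between its groups was narrower than the spread within either, and the log2 fold change was 0.45 (SE 0.151, adjusted p = 0.0291). Both calls were close to the threshold, and leaving out any of several libraries lost them. HSD17B7 lost its call without control replicate 3 (edgeR adjusted p = 0.0648), FKA replicate 1 (0.0604) or FKA replicate 2 (0.0619), in a range of 0.00588 to 0.147 over the alternatives. ERG28 lost its call without control replicate 2 (edgeR adjusted p = 0.0922), control replicate 3 (0.108) or FKA replicate 2 (0.0982), in a range of 0.003497 to 0.282. ERG28 also missed the threshold with no filter (edgeR adjusted p = 0.0656). The other 12 genes that rose and both that fell stayed past the threshold in each of the 6 fits that leave out 1 library.

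EBP, the isomerase that shifts the ring's double bond just before SC5D acts, was the late gene that fell. It had 14.8, 15.6 and 16.8 CPM with FKA, against 20.01, 24.9 and 22.04 CPM in controls. Every FKA library was below every control, with a log2 fold change of -0.51 (SE 0.127, adjusted p = 0.00766). EBP did not pass with library totals alone (edgeR adjusted p = 0.0523, in a range of 0.000857 to 0.0674 over the alternatives). Neither did it pass with limma on log2(FPKM + 1) (adjusted p = 0.0674) or on log2(FPKM + 0.1) (adjusted p = 0.0560). NSDHL, the dehydrogenase that removes a carboxyl group in the same cycle as MSMO1 and HSD17B7, had 20.7, 16.9 and 21.98 CPM with FKA, against 28.7, 20.6 and 24.7 CPM in controls. The groups of NSDHL overlapped, and its log2 fold change of -0.31 missed the edgeR threshold (adjusted p = 0.111), which it passed with the batch as a block (adjusted p = 0.0444) and without control replicate 2 (0.0425), in a range of 0.0425 to 0.4605.

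The enzymes that open and close the late part did not pass the test. SQLE, the squalene epoxidase, averaged 21.8 ± 3.01 CPM with FKA and 18.7 ± 2.46 CPM in controls (SD, n = 3 each), with a log2 fold change of 0.22 (edgeR adjusted p = 0.224). SQLE passed edgeR with library totals alone (log2 fold change 0.38, adjusted p = 0.0406, in a range of 0.0347 to 0.584) and limma on genes with a mean of at least 1 FPKM (0.32, adjusted p = 0.0347). LSS, which folds squalene epoxide into lanosterol, averaged 28.98 ± 0.556 CPM with FKA and 26.5 ± 2.63 CPM in controls, with a log2 fold change of 0.13 (edgeR adjusted p = 0.335). CYP51A1, the lanosterol demethylase, averaged 25.2 ± 3.74 CPM with FKA and 28.2 ± 0.802 CPM in controls, with a log2 fold change of -0.16 (edgeR adjusted p = 0.286). In GENCODE 29, 79.4% of its exon bases are shared with AC000120.2 on the same strand, a gene with no entry of that name in the deposited counts. CYP51A1 has 3 named pseudogenes in GENCODE 29 and HSD17B7 has 2, so the counts of both are uncertain. DHCR7, the reductase of the last step of one route to cholesterol, had 13.6, 14.003 and 21.1 CPM with FKA, against 15.6, 15.5 and 15.1 CPM in controls. FKA replicate 3 alone was above the controls, the other FKA libraries were below them, and without it the log2 fold change of DHCR7 was -0.16 in place of 0.078. The early and late parts thus both held genes of each kind: 9 of 21 synthesis genes rose (42.9%) and 2 fell (9.52%). Of all tested genes 29.3% rose and 30.5% fell.

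**Figure D2:**
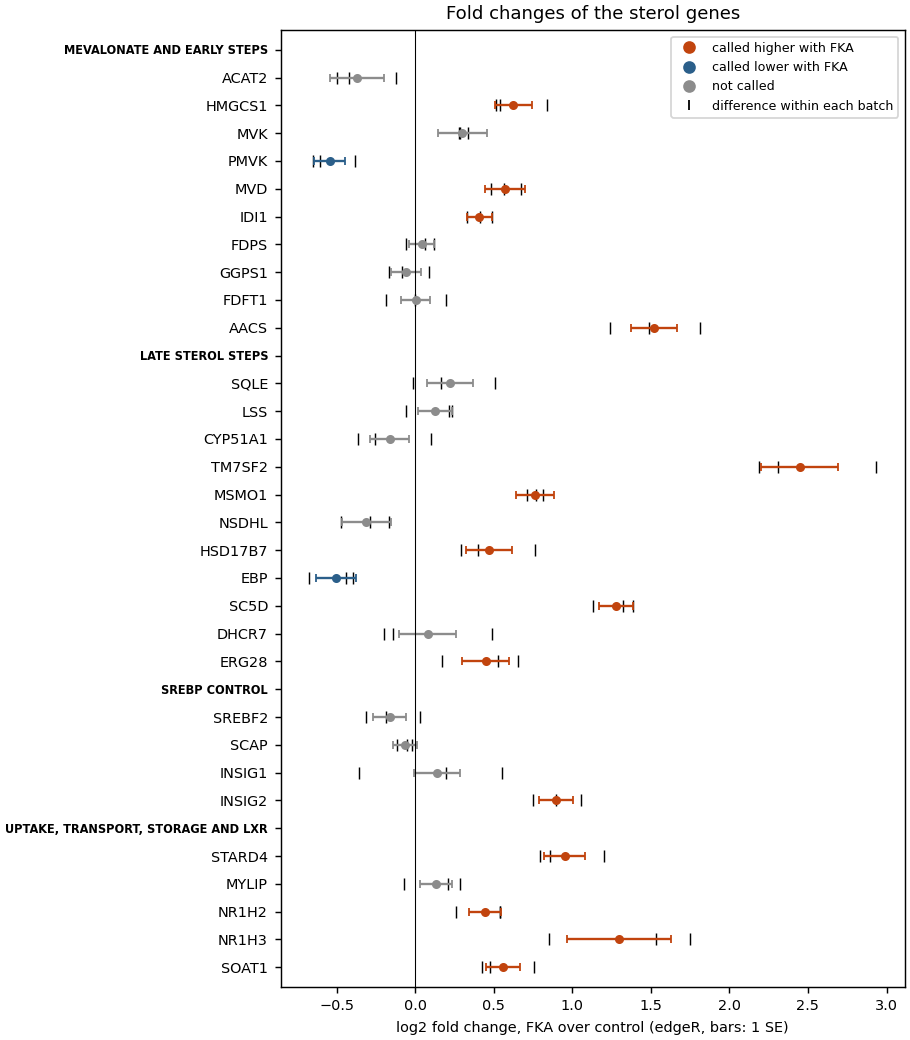
Log2 fold change of FKA over control for the 30 sterol genes (points, edgeR, bars of 1 SE), with the FKA minus control log2 difference within each of the 3 batches as ticks. In 20 of 30 genes all 3 ticks have the sign of the point, which includes all 16 changed genes, and the ticks of INSIG1 run from -0.36 to 0.55.

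Of the 4 SREBP control genes 1 rose, none fell and 3 did not pass the test, and the median log2 fold change was 0.04. The share that rose, 25%, was near the 29.3% of all tested genes. INSIG2, which holds SCAP in the endoplasmic reticulum and is known as the INSIG form that does not depend on SREBP, had 29.97, 29.9 and 28.6 CPM with FKA, against 14.4, 16.1 and 17.02 CPM in controls. The FKA values lay close together and well above every control, a rise of 1.86-fold and a log2 fold change of 0.90 (SE 0.111, adjusted p = 0.000176). INSIG1, the form that is itself a target of SREBP, had 104.3, 72.5 and 95.8 CPM with FKA, against 71.1, 92.8 and 83.6 CPM in controls. Its groups overlapped and its batches disagreed, with differences of 0.55, -0.36 and 0.20 in batches 1, 2 and 3 and a log2 fold change of 0.14 (SE 0.148, adjusted p = 0.4404). SREBF2, which encodes SREBP2, had 225.7, 240.7 and 215.6 CPM with FKA, against 221.1, 273.8 and 267.8 CPM in controls. Control replicate 1 was the low control, inside the FKA range, and the log2 fold change was -0.16 (SE 0.106, adjusted p = 0.214). Without control replicate 1 SREBF2 passed (log2 fold change -0.26, edgeR adjusted p = 0.0302, in a range of 0.0302 to 0.989 over the alternatives), and its sign turned with limma on FPKM. SCAP, the escort and sterol sensor, had 79.1, 80.95 and 80.8 CPM with FKA, against 85.7, 82.2 and 83.7 CPM in controls. SCAP stayed within a narrow range in all 6 libraries, with the FKA values just under those of controls, with a log2 fold change of -0.063 (SE 0.0755, adjusted p = 0.492), and its sign turned with library totals alone.

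The proximal promoters are shown because SREBP2 acts on the synthesis genes through their promoters, together with partner factors. RefSeq windows of GRCh38.p14, from 250 bases before to 50 after the start of each gene, were matched by symbol for 27 of the 30 members, in 38 windows. 3 motifs were searched on both strands: TCACNCCAC, a form of the sterol response element, CCAAT, the box bound by NF-Y, and CACGTG, an E-box. Matches of different motifs did not overlap in any member window. CCAAT stood in 21 of 27 members (77.8%), against 39.7% of all 27305 genes with a window. By call it stood in 11 of 14 genes that rose, 1 of 2 that fell and 9 of 11 that did not pass. TCACNCCAC stood in 1 of 27 members, SREBF2, against 1.39% of all genes, and CACGTG in 4 of 27 (14.8%), against 8.77% of all genes. These are matches of letters, given as a description with no test. The 180 bases before the start follow for 8 members, 5′ to 3′ on the gene's strand, with matches in capitals (ATTGG is CCAAT on the other strand). SREBF2 (chr22:41832925-41833104, plus strand) and INSIG1 (chr7:155297698-155297877, plus strand) are shown as regulators:
SREBF2: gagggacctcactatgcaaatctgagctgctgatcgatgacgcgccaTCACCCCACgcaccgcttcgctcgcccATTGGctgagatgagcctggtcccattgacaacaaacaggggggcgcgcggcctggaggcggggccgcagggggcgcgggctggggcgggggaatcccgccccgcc
INSIG1: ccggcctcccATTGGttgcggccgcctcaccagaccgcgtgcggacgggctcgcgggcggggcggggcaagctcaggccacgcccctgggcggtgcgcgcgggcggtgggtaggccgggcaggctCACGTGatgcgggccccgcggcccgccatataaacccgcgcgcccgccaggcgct
SC5D (chr11:121292591-121292770, plus strand), TM7SF2 (chr11:65111692-65111871, plus strand), MSMO1 (chr4:165327489-165327668, plus strand), STARD4 (chr5:111512536-111512715, minus strand) and HMGCS1 (chr5:43313413-43313592, minus strand) are shown as members that rose:
SC5D: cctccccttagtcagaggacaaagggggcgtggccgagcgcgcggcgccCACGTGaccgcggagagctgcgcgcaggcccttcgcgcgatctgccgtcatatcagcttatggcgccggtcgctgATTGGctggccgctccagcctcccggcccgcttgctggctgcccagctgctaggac
TM7SF2: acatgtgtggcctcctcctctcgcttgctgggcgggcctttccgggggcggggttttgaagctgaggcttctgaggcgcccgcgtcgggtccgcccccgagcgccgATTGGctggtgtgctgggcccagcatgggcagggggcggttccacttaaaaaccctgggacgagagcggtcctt
MSMO1: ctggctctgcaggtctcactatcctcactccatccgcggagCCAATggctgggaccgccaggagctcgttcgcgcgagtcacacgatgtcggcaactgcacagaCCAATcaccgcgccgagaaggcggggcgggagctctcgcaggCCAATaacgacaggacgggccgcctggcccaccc
STARD4: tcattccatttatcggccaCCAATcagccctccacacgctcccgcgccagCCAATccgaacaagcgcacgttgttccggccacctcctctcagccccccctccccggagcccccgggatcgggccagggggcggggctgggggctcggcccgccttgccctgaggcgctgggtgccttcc
HMGCS1: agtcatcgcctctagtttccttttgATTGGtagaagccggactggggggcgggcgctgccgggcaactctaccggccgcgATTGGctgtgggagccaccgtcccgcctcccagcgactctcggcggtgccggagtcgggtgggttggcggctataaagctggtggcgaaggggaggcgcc
EBP (chrX:48521628-48521807, plus strand) is shown as a member that fell:
EBP: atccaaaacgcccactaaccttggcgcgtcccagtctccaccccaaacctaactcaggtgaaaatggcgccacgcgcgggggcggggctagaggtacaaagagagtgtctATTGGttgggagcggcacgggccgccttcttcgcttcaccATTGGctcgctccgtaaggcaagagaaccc

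In SREBF2 the TCACNCCAC match began at position -133, counted back from the gene start, and a CCAAT box on the other strand began at -106. MSMO1 had 3 CCAAT boxes in the stretch shown, and STARD4, HMGCS1 and EBP also had more than 1. SREBF2 mRNA did not pass the test and EBP fell, while MSMO1, STARD4 and HMGCS1 rose, so genes with CCAAT were found in every class of call.

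Of the 5 genes of sterol transport, uptake, storage and LXR, 4 rose and MYLIP did not pass the test, with a median log2 fold change of 0.56. The share that rose was 80%, where 29.3% of all tested genes rose. STARD4, a soluble carrier that moves cholesterol between membranes, had 74.95, 89.95 and 96.9 CPM with FKA, against 41.3, 51.9 and 42.2 CPM in controls. Its groups were well apart, with a rise of 1.93-fold and a log2 fold change of 0.95 (SE 0.129, adjusted p = 0.000282). SOAT1, which esterifies cholesterol for storage in droplets, had 50.8, 63.9 and 53.9 CPM with FKA, against 36.5, 37.7 and 40.1 CPM in controls. All SOAT1 values with FKA were above those of controls, FKA replicate 2 the highest, with a log2 fold change of 0.56 (SE 0.109, adjusted p = 0.00207). NR1H2, which encodes the widely expressed LXR beta, had 50.6, 51.04 and 52.8 CPM with FKA, against 42.2, 35.1 and 36.3 CPM in controls. The FKA values were tight and above every control, with a log2 fold change of 0.44 (SE 0.1003, adjusted p = 0.00449). NR1H3, which encodes LXR alpha, had the fewest counts of all members, with 60, 66 and 66 counts with FKA, against 20, 41 and 19 counts in controls. On the CPM scale that was 1.86, 2.06 and 1.899 CPM with FKA, against 0.644, 1.15 and 0.565 CPM in controls, and control replicate 2 lay above the other controls. The log2 fold change of NR1H3 was 1.3 (SE 0.331, adjusted p = 0.00825), and it was 0.45 on log2(FPKM + 1) values, where the added constant shrinks changes of low genes. MYLIP, a ubiquitin ligase induced by LXR that removes lipoprotein receptors from the cell surface, had 66.7, 66.3 and 67.2 CPM with FKA, against 54.8, 69.7 and 58.2 CPM in controls. The FKA values of MYLIP lay inside the control range, with a log2 fold change of 0.13 (SE 0.104, adjusted p = 0.301).

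Levels of different genes were compared on the deposited FPKM scale, which divides by gene length and by the column total. FDPS was the most abundant member per length, with 59.6 ± 2.2998 FPKM with FKA and 51.9 ± 0.894 FPKM in controls (SD, n = 3 each), and FDFT1 the next, with 38.5 ± 2.103 FPKM with FKA and 34.5 ± 3.76 FPKM in controls. NR1H3 was the lowest in both groups, with 0.716 ± 0.0457 FPKM with FKA and 0.261 ± 0.115 FPKM in controls. TM7SF2 held 5.69 ± 0.7801 FPKM with FKA and 0.931 ± 0.253 FPKM in controls, and the mean of its neighbour CYP51A1 was higher in both groups, with 8.08 ± 1.16 FPKM with FKA and 8.12 ± 0.4704 FPKM in controls. When the members were split by their mean FPKM over all 6 libraries, the 15 lower ones (0.489 to 7.76 FPKM) included 11 that rose, none that fell and 4 that did not pass. The 15 higher ones (8.1 to 55.7 FPKM) included 3 that rose, 2 that fell and 10 that did not pass. Median log2 fold changes were 0.62 and -0.059 in these parts. Among all tested genes in the FPKM ranges of the lower and the higher part, 30.9% and 29.3% rose and 29% and 34.3% fell. The split was made after the values were seen and has no test.

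**Figure D3:**
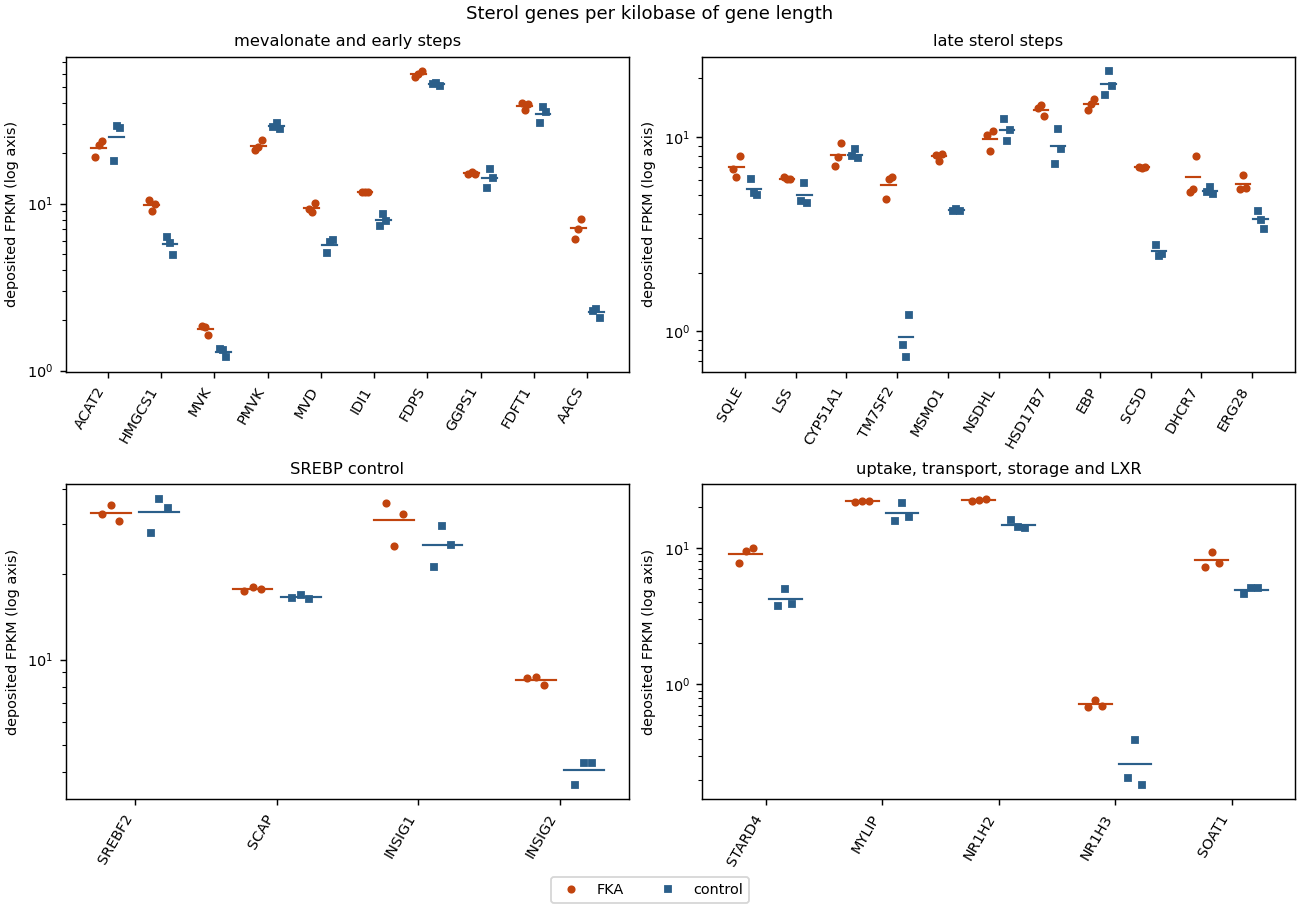
Deposited FPKM (log axis) of the 30 sterol genes in each library, FKA (circles) left of control (squares), with a line at each mean of 3 libraries. FDPS and FDFT1 lie highest, NR1H3 lowest, and the genes with the widest gaps between groups, such as TM7SF2, AACS and SC5D, start from low control levels; FPKM has no TMM scaling, which places SCAP higher with FKA here than on the CPM scale.

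Other genes of the pathway, from lists that hold no member, were split more evenly: of 49 tested genes 16 rose, 18 fell and 15 did not pass, shares near the 29.3% and 30.5% of all tested genes. The prenyl branch, which uses farnesyl and geranylgeranyl diphosphate for ubiquinone, dolichol and protein anchors, had 2 genes that rose, 7 that fell and 3 that did not pass among 12 tested of 13 listed. Its median log2 fold change was -0.34. PDSS1, a subunit of the synthase of the ubiquinone side chain, had 5.22, 3.78 and 6.67 CPM with FKA, against 32.6, 23.9 and 27.2 CPM in controls, and every FKA value was more than 3 times below the lowest control. Its log2 fold change was -2.42 (SE 0.217, adjusted p = 3.36e-05). COQ2, which attaches that chain to the ring, had 6.27, 5.84 and 6.39 CPM with FKA, against 16.2, 16.3 and 16.005 CPM in controls, with tight values in both groups and a log2 fold change of -1.39 (SE 0.131, adjusted p = 4.39e-05).

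Of 11 genes of SREBP cleavage and of sterol-regulated protein degradation, 5 rose, 4 fell and 2 did not pass, with a median log2 fold change of 0.23. The shares that rose and fell were 45.5% and 36.4%, where 29.3% and 30.5% of all tested genes did. MBTPS1, the Golgi protease that makes the initial cut in SREBP, rose by 0.55 (SE 0.0795, adjusted p = 0.000407) on the log2 scale. MBTPS2, another gene of SREBP cleavage, had a log2 fold change of -0.51 (SE 0.143, edgeR adjusted p = 0.0128). PAQR3, a Golgi protein that anchors the SCAP complex there, had a log2 fold change of -0.53 (SE 0.115, adjusted p = 0.00373), and it missed the threshold with limma on log2(FPKM + 1) (adjusted p = 0.0952, in a range of 0.000126 to 0.0952).

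Of 18 genes of sterol transport inside the cell, 6 rose, 4 fell and 8 did not pass, with a median log2 fold change of 0.14. The shares that rose and fell were 33.3% and 22.2%, where 29.3% and 30.5% of all tested genes did. STARD5, a sterol carrier related to STARD4, had 2.39, 4.78 and 4.69 CPM with FKA, against 0.418, 0.838 and 0.506 CPM in controls. It rose from a low level, with a log2 fold change of 2.73 (SE 0.384, adjusted p = 0.000341), which was 0.72 on log2(FPKM + 1) values. NPC2, which hands cholesterol out of the lysosome, had 40.9, 37.7 and 48.7 CPM with FKA, against 24.7, 18.2 and 23.7 CPM in controls, and its log2 fold change was 0.93 (SE 0.149, adjusted p = 0.0006699). TMEM97, a membrane protein also known as the sigma-2 receptor, had 4.78, 4.501 and 6.82 CPM with FKA, against 33.7, 20.5 and 23.9 CPM in controls. All FKA values of TMEM97 were far below the controls, with a log2 fold change of -2.27 (SE 0.233, adjusted p = 6.60e-05). Of 8 genes of lipoprotein receptors and LXR partners, 3 rose, 3 fell (2 with the batch as a block) and 2 did not pass, with a median log2 fold change of -0.071. The shares that rose and fell were 37.5% each, where 29.3% and 30.5% of all tested genes did. LRP8, a receptor of the lipoprotein receptor family, fell by 1.21 (SE 0.226, adjusted p = 0.00163) on the log2 scale. RXRA, the nuclear receptor that pairs with LXR, fell by 0.70 (SE 0.0892, adjusted p = 0.0002097). SMPDL3A, a phosphodiesterase induced by LXR, had 3.01, 5.25 and 5.52 CPM with FKA, against 1.87, 2.18 and 2.26 CPM in controls, with a log2 fold change of 1.13 (SE 0.271, adjusted p = 0.00614). Without FKA replicates 2 and 3, the libraries with the higher fibroblast marker sums, SMPDL3A stood at 0.51 (edgeR adjusted p = 0.305, in a range of 0.000558 to 0.305).

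**Figure D4:**
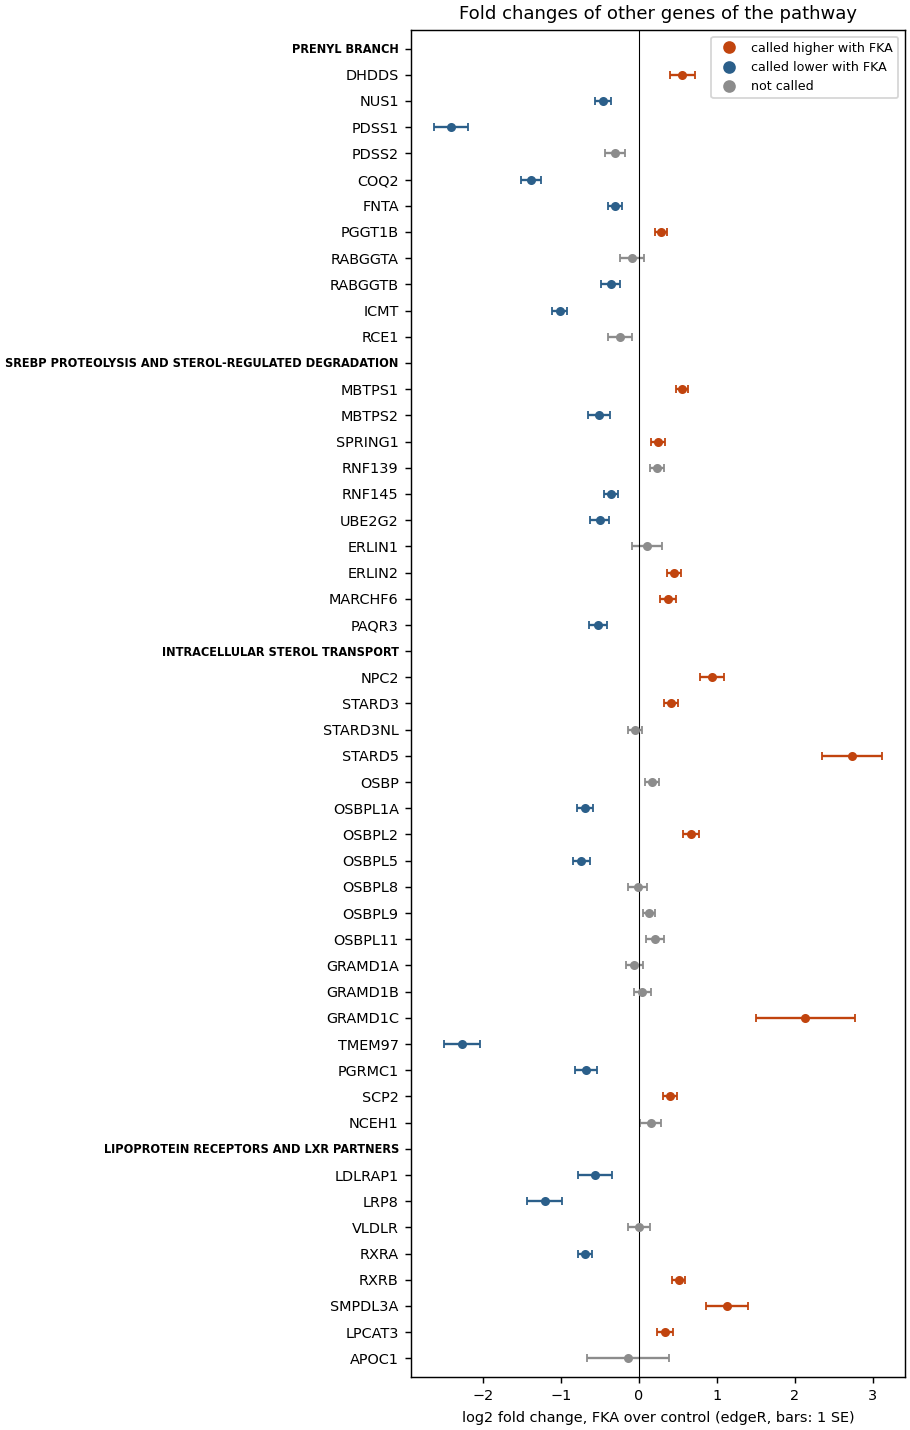
Log2 fold change of FKA over control (points, edgeR, bars of 1 SE) for genes of the other pathway lists, with 2 of the 49 tested genes not shown. The prenyl branch lies mostly left of 0, with PDSS1 at -2.42, while the other lists hold genes on both sides, from TMEM97 at -2.27 to STARD5 at 2.73.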

How the data were processed

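Bulk RNA sequencing of MV4;11 cells was read from 2 tables of 21857 genes and 6 libraries, 3 FKA and 3 control, grouped by the titles in the labels. The authors deposited whole-number read counts per gene and FPKM values. Each FPKM could be rebuilt from its count, the column total and a fixed gene length to within 6.9e-07. How reads were aligned and counted, against which annotation and with or without strand, is not given in the sources used here. GRCm38 and mm10, names of mouse builds, are listed in the submitters' processing notes, while 20900 of 21857 symbols (95.6%) matched human RefSeq genes. No library was a copy of another: chi-square over degrees of freedom between replicates was 23.1 to 70.6.

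The test on counts used edgeR 4.0.16 under R 4.3.3 (filterByExpr, TMM, quasi-likelihood F test, adjusted p threshold 0.05). SE is the unshrunk coefficient over the square root of F. The biological coefficient of variation was 15.4%. Batch labels equal replicate numbers, so the labels pair the libraries; the correlation of deviations from group means in batches 1 to 3 was 0.054, 0.34 and -0.077. Alternatives were the batch block, DESeq2 1.42.0, other scalings and filters, limma 3.58.1 on log2 FPKM and leaving out libraries.

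The members and lists were chosen with earlier results of these data known. All members are named. Of each other list, up to 3 changed genes are named, those with the largest change whose higher group averages 50 counts or more; 2 of these are not reported here, though list counts include them. The promoter motifs, the 8 promoters shown and the split by FPKM were chosen after values were seen. Markers of epithelial, liver, T, B and megakaryocyte cells were also read: their summed levels were at most 18.6 CPM with FKA and 21.5 CPM in controls. None of the 3 erythroid markers on the list was among the genes read.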

Additional observations from a re-analysis of the deposited data

How the results depend on the processing

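12 of the 30 members kept their direction and their side of the threshold under all 17 alternatives, and so did 456 of 509 values of members under alternatives; 13 values gained a call, 18 lost one and 22 changed sign. No sign change concerned a changed gene. Without FKA replicates 2 and 3 together, which leaves 1 FKA library that is assumed to vary like the controls, 2020 genes rose and 2599 fell, and 7 members rose and 1 fell. 4 members fell with the batch as a replicate block, which added the calls of ACAT2 and NSDHL and changed no other member's call. 1 member fell with library totals alone, with limma on log2(FPKM + 1) and with limma on log2(FPKM + 0.1). Leaving out 1 library at a time gave 12 to 14 members that rose and 2 to 4 that fell (4 without control replicate 1), and 3365 to 3981 genes that rose and 3711 to 4212 that fell over all genes. The filter was applied anew in each of these fits, and shares of tested genes are not given. The cause of these shifts was not tested.

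The sign changes follow. FDFT1 stood at -0.0021 with DESeq2 and with RLE factors, -0.036 with no filter, -0.072 without control replicate 1, -0.029 without FKA replicate 1 and -0.022 without FKA replicate 3, in a range of -0.072 to 0.055 over single libraries left out. GGPS1 stood at 0.010 with upper-quartile factors, 0.097 with library totals alone, 0.098 on log2(FPKM + 1) with and without a mean of at least 1 FPKM, and 0.10 on log2(FPKM + 0.1). SCAP stood at 0.0051, 0.096, 0.091 and 0.095 under the same settings in that order. SREBF2 stood at 0.0023 on log2(FPKM + 1), with and without that mean, and 0.0026 on log2(FPKM + 0.1). DHCR7 stood at -0.16 without FKA replicate 3, in a range up to 0.19 without FKA replicate 1, and -0.19 without FKA replicates 2 and 3, and FDPS at -0.023 without both. NR1H3 had the fewest counts of the members, 19 to 66 per library, which limits its precision.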
